A study of Mus musculus with 11 samples.

Results

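The 34 genes described here carry out damage checkpoint signaling and the joining of broken DNA ends in mouse cells, and were taken from a list of ATM and ATR signaling, checkpoint and non-homologous end joining genes. They fall into 7 roles, namely the apical kinases and a partner, the effector kinases and their cell cycle targets, the MRN break sensor, chromatin recruitment factors, replication checkpoint mediators, the checkpoint clamp with its loader, and end joining. Reads of 5 bulk RNA sequencing libraries were summed to 35127 genes, of which 14114 had enough reads to be tested, and all 34 listed genes were among the genes tested. The cells were KP1, a mouse small cell lung cancer (SCLC) line mutant for Rb and p53, grown in culture. Both groups therefore share the Rb and p53 mutations, and each library comes from the same single line. The 2 control libraries, numbered 2 and 3, came from untreated KP1 cells, and the 3 irradiated libraries came from KP1 cells collected 24 h after a dose of 5 Gy. The comparison asks how the transcripts of irradiated SCLC cells in culture differed from those of untreated cells a day later.

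Cells answer a broken DNA molecule in layers. The MRN complex (Mre11a, Rad50 and Nbn) binds the ends and brings in the kinase ATM, ATR answers single-stranded DNA at stalled forks, and DNA-PKcs, encoded by Prkdc, holds the ends for ligation. The kinases mark histone H2AX, encoded by H2afx, around the break, where Mdc1, ubiquitin ligases and Trp53bp1 gather, and they switch on the effector kinases Chek1 and Chek2, which hold back cell division by acting on Cdc25a. Much of this signaling runs through phosphorylation and ubiquitin, which RNA levels do not record.

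The libraries held 21185956 to 31036317 reads. The read-weighted transcript length, the mean length of the transcript a read falls on, was 5463 and 4729 bases in control 2 and 3, and 3715, 3625 and 3998 bases in irradiated 1, 2 and 3. Reads thus fell on shorter transcripts in all 3 irradiated libraries than in both controls, and control 2 also stood above control 3. The fold changes below are for this reason given without and with an adjustment for transcript length. The markers matched the labelled cell type, since the neuroendocrine markers Chga and Insm1, chosen from a longer list after their values were seen, had 278.3 to 475.3 and 263.2 to 502.4 TPM (Salmon's abundance, a level per length) in the 5 libraries, while 5 leukocyte and macrophage markers summed to 1.18 to 6.91 TPM and 3 endothelial markers to 0.314 to 1.55 TPM. The 4 fibroblast markers summed to 36.7 to 67.3 TPM, mostly from Pdgfra, while Dcn was at or near 0.

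Without the length adjustment, 9 of the 34 genes fell after irradiation, 1 rose and 24 did not pass the test (edgeR quasi-likelihood test, Benjamini-Hochberg adjusted p under 0.05 over all genes tested). Among all genes tested, 13.0% fell and 12.7% rose. The genes that fell were the kinases Atm, Atr and Prkdc, the MRN subunit Rad50, the recruitment factors Mdc1, Trp53bp1 and Rif1, and the fork mediators Clspn and Timeless, whereas Tipin, the binding partner of Timeless, rose. The median log2 fold change of the 34 genes was -0.20, against 0.02 over all genes tested. None of the 34 passed the stricter rule of a log2 fold change beyond 1.5, which 1.90% of all genes passed downward and 1.64% upward.

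With the length adjustment, 2 of the 34 genes fell, Rad50 and Clspn, and 0 rose, at backgrounds of 2.15% lower and 3.00% higher among all genes tested. The stricter rule was passed by 0 of the 34, against 0.623% of all genes downward and 0.220% upward. At an unadjusted edgeR p under 0.05, 6 of the 34 were lower and 0 higher with the length adjustment, against 12.1% and 15.9% of all genes, and DESeq2 with the same offset called 4 lower and 0 higher, against 8.10% and 7.72%. The median log2 fold change was -0.15, against 0.04 over all genes. In bulk libraries, a smaller share of cells with a transcript and less of it per cell cannot be told apart. Leaving out control 2, the library with the longest read-weighted length, left 3 genes lower without the adjustment (Atm, Mdc1 and Rif1), and 0 higher, against 1.12% and 0.615% of all genes, and 0 in either direction with it, against 0.00684% lower (1 of 14627) and 0.00% higher, in a fit where control 3 alone is assumed to vary like the irradiated libraries. On log2(TPM + 1) with limma, 17 of the 34 genes fell and 0 rose, against 19.0% and 4.94% of all genes. Other offsets gave more calls than the spline on the main transcript, and both kinds weight the transcripts of a gene by TPM. Offsets from Salmon's effective length are centred within each gene. They follow differences between libraries in a gene's own length and do not remove a trend with length across genes. They are counted here among the alternatives of the adjusted fit. With offsets from Salmon's effective length the 9 genes lower without the adjustment were all lower, at log2 fold changes from -2.001 for Atm to -0.80 for Timeless, and 0 of the 34 were higher, against 9.86% and 10.4% of all genes. With the TPM-weighted mean length Atm, Clspn, Mdc1, Rad50, Rif1 and Trp53bp1 were lower and 0 higher, against 3.66% and 4.27% of all genes.

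**Figure D1:**
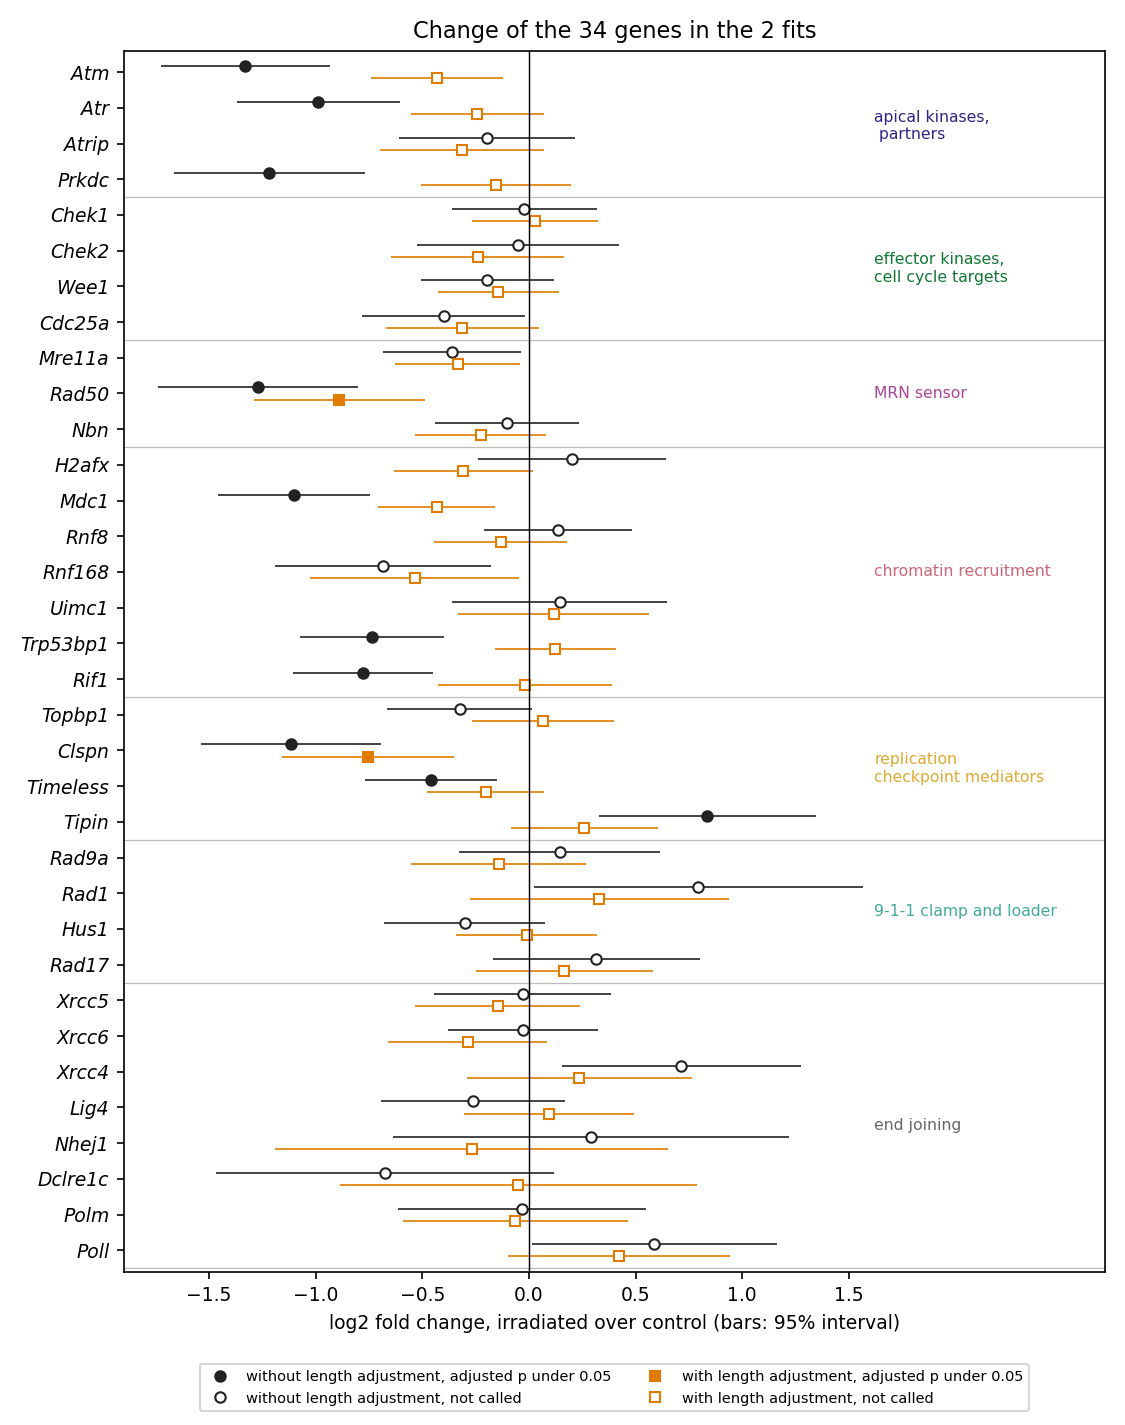
Log2 fold change of each of the 34 genes, irradiated over control, grouped by role on the vertical axis, with circles without and squares with the length adjustment, bars for 95% intervals and filled symbols for an edgeR adjusted p under 0.05. Filled circles sit left of 0 for 9 genes and right of 0 for Tipin, and the filled squares are those of Rad50 and Clspn.

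The apical kinases start the response and are among the longest transcripts of the group. Atm (chr9:53439149-53536740, minus strand, GRCm38) had 156.6 and 115.0 CPM (reads scaled to a common library size with TMM factors) in control 2 and 3, and 58.7, 49.7 and 53.7 CPM in irradiated 1, 2 and 3. All 3 irradiated libraries lay below both controls, and the log2 fold change was -1.33 ± 0.17 (SE, n = 2 and 3; edgeR adjusted p = 0.00826), a level 2.51-fold lower. With the length adjustment the same libraries stood at 96.1 and 90.1 against 75.7, 69.5 and 61.8 adjusted CPM, still apart, and the log2 fold change was -0.43 ± 0.13 (edgeR adjusted p = 0.0892). It passed the test in 5 of 16 alternatives of the adjusted fit, at -2.001 with effective length offsets and -0.77 with the TPM-weighted mean length. The effective length offsets leave a trend with length across genes.

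Prkdc (chr16:15637866-15842235, plus strand) has the longest main transcript of the 34, with 12647 bases. Its levels were 45.2 and 34.5 CPM in the controls and 15.2, 16.5 and 19.7 CPM in the irradiated libraries, a log2 fold change of -1.22 ± 0.20 (edgeR adjusted p = 0.00922). After the length adjustment the values were 24.9 and 26.0 against 20.3, 24.6 and 23.8 adjusted CPM, so that the irradiated libraries came close to the lower control and the log2 fold change was -0.16 ± 0.15 (edgeR adjusted p = 0.538). With effective length offsets, which leave a trend with length across genes, it was -1.17 ± 0.22 (edgeR adjusted p = 0.0142). That was the 1 alternative of 16 in which Prkdc passed.

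Atr (chr9:95857597-95951781, plus strand), the kinase of the replication checkpoint, had 66.9 and 53.0 CPM in the controls and 27.6, 30.5 and 32.6 CPM in the irradiated libraries. The groups did not overlap, with a log2 fold change of -0.99 ± 0.17 (edgeR adjusted p = 0.00935) that became -0.24 ± 0.14 with the length adjustment (edgeR adjusted p = 0.278). Antisense RNA genes overlap exons of Atr, and whether the counting used strand is not given in the sources used here. Atrip, which carries ATR to single-stranded DNA, has a main transcript of 2572 bases. It had 30.0 to 32.3 CPM in the controls and 22.9 to 30.4 CPM in the irradiated libraries. Its log2 fold changes of -0.20 and -0.31 did not pass the test in either fit (edgeR adjusted p = 0.441 and 0.257). Trex1 on the same strand overlaps exons of Atrip, so reads may be split between them. With protein-coding transcripts alone, without the length adjustment, Atrip stood at -0.15 (edgeR adjusted p = 0.615).

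The effector kinases and their cell cycle targets gave no call, with 0 of 4 passing the edgeR test in either fit and 0 with DESeq2, while at an unadjusted edgeR p under 0.05 Cdc25a alone was lower, without the length adjustment, where 20.1% of all genes were lower and 20.9% higher at that p. Chek1, the kinase that ATR activates, had 41.5 and 48.7 CPM in the controls and 43.8 to 45.0 CPM in the irradiated libraries, inside the range of the controls, with 95% intervals of the log2 fold change from -0.36 to 0.32 without and from -0.27 to 0.33 with the adjustment. Chek2, the kinase that ATM activates, had 13.3 and 17.7 CPM against 14.4 to 15.5 CPM. Wee1, which holds back the mitotic kinase, had 103.7 and 100.7 CPM in the controls and 85.0 to 93.2 CPM after irradiation, and its log2 fold change was -0.20 (95% interval -0.51 to 0.12). Cdc25a, the phosphatase that the effector kinases send for destruction, went from 136.9 and 106.8 to between 84.6 and 102.3 CPM, at log2 fold changes of -0.40 without and -0.31 with the adjustment (edgeR adjusted p = 0.107 and 0.231).

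Within the MRN sensor, Rad50 stood apart from its partners. Rad50 (chr11:53649519-53707319, minus strand), the ATPase that bridges the ends, had 97.2 and 70.0 CPM in control 2 and 3 and 37.2, 27.5 and 39.2 CPM in irradiated 1, 2 and 3. The log2 fold change was -1.27 ± 0.21 (edgeR adjusted p = 0.00922), or 2.41-fold lower. With the length adjustment the values were 80.6 and 61.5 against 42.2, 31.9 and 40.9 adjusted CPM, a log2 fold change of -0.89 ± 0.17 (edgeR adjusted p = 0.0354) or 1.85-fold lower. The irradiated libraries lay below both controls on either scale.

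Mre11a, the nuclease of the complex, had 50.3 and 48.4 CPM in the controls and 37.1 to 39.8 CPM after irradiation, without overlap, at log2 fold changes of -0.36 ± 0.14 and -0.33 ± 0.13 that did not pass the test (edgeR adjusted p = 0.0914 and 0.138). Nbn, which ties the complex to ATM, had 35.6 and 35.0 CPM against 32.4 to 33.4 CPM, with a log2 fold change of -0.10 (95% interval -0.44 to 0.23).

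Of the 7 chromatin recruitment genes, 3 fell without and 0 with the length adjustment by edgeR, against 13.0% and 2.15% of all genes. With the adjustment 2 were lower at an unadjusted edgeR p under 0.05, against 12.1% of all genes, and DESeq2 called 1 lower, against 8.10%. Mdc1 (chr17:35841515-35859670, plus strand), the scaffold that reads phosphorylated H2AX, had 408.6 and 342.0 CPM in the controls and 179.3, 159.9 and 185.1 CPM in the irradiated libraries, a log2 fold change of -1.10 ± 0.16 (edgeR adjusted p = 0.00871). With the adjustment it had 285.9 and 281.0 against 219.8, 206.8 and 203.0 adjusted CPM, which did not overlap, and the log2 fold change was -0.43 ± 0.12 (edgeR adjusted p = 0.0711).

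Trp53bp1 (chr2:121193281-121271407, minus strand), which shields ends from resection, had 189.2 and 170.4 CPM in the controls and 106.6, 98.8 and 118.4 CPM in the irradiated libraries. Its log2 fold change was -0.74 ± 0.15 (edgeR adjusted p = 0.013) without the adjustment and 0.12 ± 0.12 with it (edgeR adjusted p = 0.542), where the adjusted levels were 117.2 and 134.0 against 137.1, 137.5 and 135.9 CPM. The irradiated libraries thus lay below both controls on the unadjusted scale and above both on the adjusted scale. Offsets that weight transcripts by TPM kept the gene lower, but those from effective length leave a trend with length across genes. The log2 fold change of Trp53bp1 was -0.88 with effective length offsets and -0.60 with the TPM-weighted mean length. Protein-coding transcripts held 30.4% to 41.88% of its TPM and 64.89% to 74.25% of its reads. The part of this difference in the 2 values was not tested. Trp53bp1 shares exon sequence with Tubgcp4 on the other strand.

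Rif1 (chr2:52072832-52122383, plus strand), which acts with Trp53bp1 on the ends, had 214.5 and 255.0 CPM in the controls and 138.5, 134.9 and 136.9 CPM in the irradiated libraries. Its log2 fold change of -0.78 ± 0.14 (edgeR adjusted p = 0.0109) became -0.02 ± 0.18 (edgeR adjusted p = 0.955), since the adjusted controls at 140.3 and 204.4 CPM spanned the irradiated values of 174.5, 181.8 and 153.8 CPM. It was -0.81 and called with either effective length offsets or the TPM-weighted mean length (edgeR adjusted p = 0.0236 and 0.0197). Both weight transcripts by TPM, and the effective length offsets leave a trend with length across genes. Nonsense-mediated decay transcripts held 57.07% to 76.79% of Rif1 TPM in the 5 libraries, from 1.14% to 2.45% of its reads. The part of these transcripts in the 2 calls was not tested. Without the length adjustment, a GC offset left -0.42 and no call (edgeR adjusted p = 0.0754).

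The other recruitment genes did not pass the test. Rnf168, a ubiquitin ligase for histone H2A, had 257.7 and 156.5 CPM in the controls, a wide gap, and 113.4 to 146.5 CPM after irradiation, at a log2 fold change of -0.68 ± 0.22 (edgeR adjusted p = 0.053). H2afx had 101.9 and 152.5 CPM against 133.7 to 154.1 CPM, and its log2 fold change was 0.20 without and -0.31 with the adjustment (edgeR adjusted p = 0.461 and 0.197). Rnf8, the ligase that acts before Rnf168, had 36.7 to 37.1 CPM against 37.5 to 44.1 CPM, and Uimc1, which reads the ubiquitin chains, had 15.2 and 23.7 CPM against 21.4 to 21.6 CPM.

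The replication checkpoint mediators moved in both directions. Clspn (chr4:126556935-126593903, plus strand), the adaptor through which ATR reaches Chek1, had 226.9 and 237.7 CPM in the controls and 129.9, 86.3 and 105.6 CPM in the irradiated libraries, a log2 fold change of -1.11 ± 0.18 (edgeR adjusted p = 0.00923) or 2.17-fold lower. With the adjustment it had 190.5 and 209.8 against 146.4, 99.3 and 109.8 adjusted CPM, a log2 fold change of -0.76 ± 0.18 (edgeR adjusted p = 0.049) that just passed the threshold. The 16 alternatives of the adjusted fit include effective length offsets, which leave a trend with length across genes. Over all 16 the log2 fold change of Clspn ran from -1.27 to -0.64, and that of Rad50 from -1.23 to -0.67. Neither gene was called without control 2, irradiated 1 or irradiated 2, or with the replicate block, but these fits called 0 to 3 of all genes tested, so the lack of a call there says nothing about these genes. Without irradiated 3, where 246 genes were called, the edgeR adjusted p was 0.105 for Clspn and 0.0606 for Rad50. Clspn was also not called without control 3 (-0.66, edgeR adjusted p = 0.0824), with protein-coding transcripts alone (-0.81, edgeR adjusted p = 0.0515) or with a spline of 3 degrees of freedom (-0.74, edgeR adjusted p = 0.0505).

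Timeless (chr10:128232065-128252941, plus strand), which protects stalled forks, had 111.3 and 110.2 CPM in the controls and 83.4, 76.8 and 81.2 CPM in the irradiated libraries, with a log2 fold change of -0.46 ± 0.14 (edgeR adjusted p = 0.04). Tipin (chr9:64281581-64305424, plus strand) had 36.0 and 52.5 CPM in the controls and 85.1, 89.0 and 62.8 CPM in the irradiated libraries, with a log2 fold change of 0.84 ± 0.22 (edgeR adjusted p = 0.0294) or 1.78-fold higher. The irradiated libraries lay below both controls for Timeless and above both for Tipin, whose main transcripts measure 4457 and 1211 bases. With the length adjustment the log2 fold changes were -0.20 ± 0.12 for Timeless (edgeR adjusted p = 0.303) and 0.26 ± 0.15 for Tipin (edgeR adjusted p = 0.294). The Timeless call was lost in 8 of 15 alternatives without the length adjustment, among them each that left out 1 library, and the Tipin call in 5 of 15, among them those without control 2, irradiated 1 or irradiated 2. A long non-coding RNA gene on the other strand overlaps exons of Timeless. Topbp1, which activates ATR, had 250.6 and 294.7 CPM against 209.6 to 226.7 CPM, at log2 fold changes of -0.33 ± 0.15 without and 0.06 ± 0.14 with the adjustment (edgeR adjusted p = 0.135 and 0.807).

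**Figure D2:**
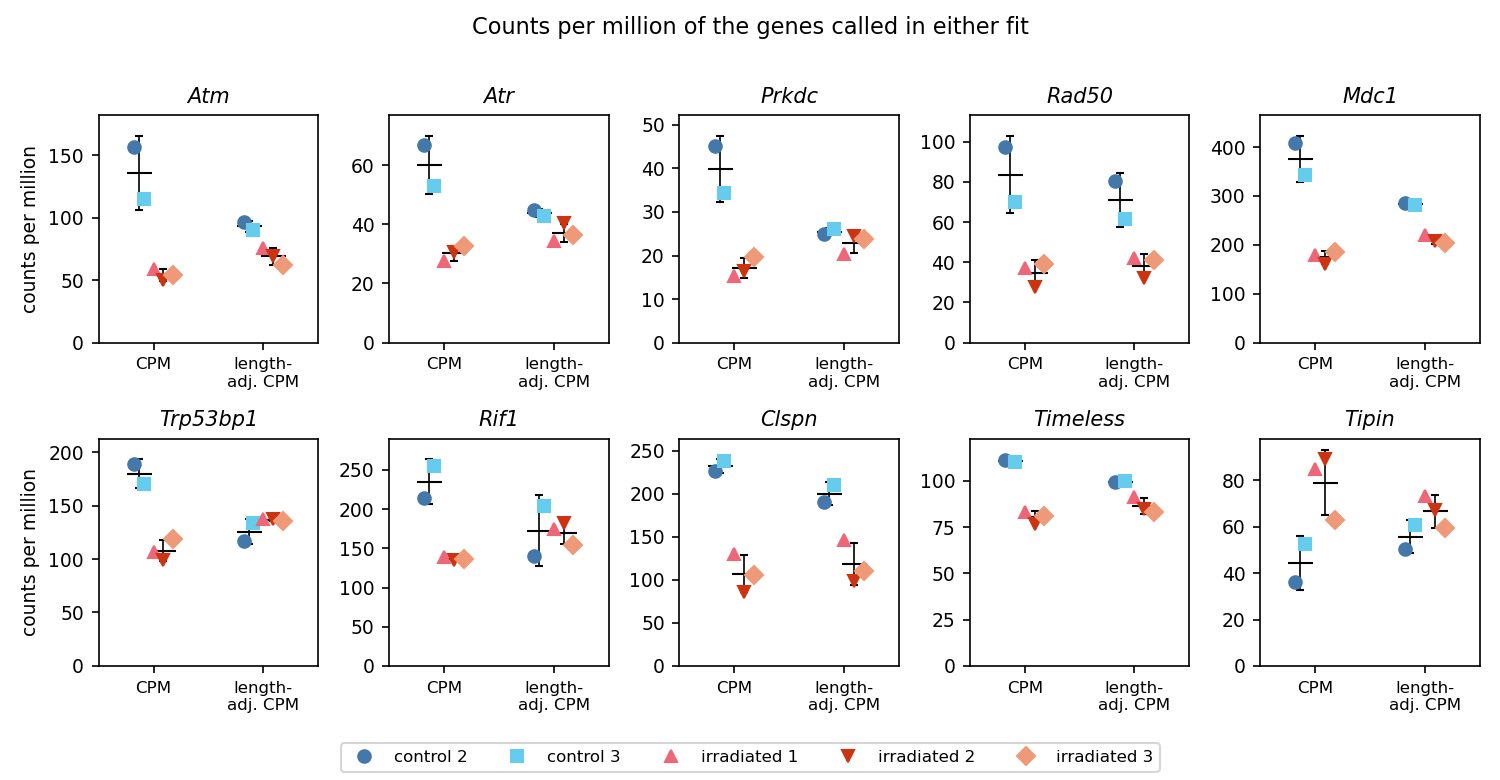
CPM, from 0 on a linear axis, of the 10 genes called in either fit, with 1 symbol for each library, without the length adjustment on the left and with it on the right of each panel, and lines for the mean ± SD of each group. The controls of Atm at 156.6 and 115.0 CPM stand far above its irradiated libraries on the left, and the gaps of Rad50 and Clspn remain wide on the right while those of Trp53bp1 and Rif1 close.

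The clamp genes and the loader subunit did not pass the test in either fit, with 0 of 4 lower and 0 of 4 higher by edgeR or DESeq2. At an unadjusted edgeR p under 0.05 Rad1 alone was higher, without the length adjustment, where 20.9% of all genes were higher. Rad9a, Rad1 and Hus1 form a ring around DNA that Rad17 loads next to damage. Rad1, the gene of this role with the highest log2 fold change, had 6.48 and 13.3 CPM in the controls and 13.2 to 21.1 CPM after irradiation, so the groups touched, and its log2 fold change was 0.79 ± 0.34 (edgeR adjusted p = 0.113) and 0.33 ± 0.26 with the adjustment. Hus1 had 38.9 and 33.8 CPM against 26.5, 30.9 and 31.01 CPM, at a log2 fold change of -0.30 ± 0.16 that became -0.01 ± 0.14. Rad17 had 20.6 and 31.9 CPM against 30.0 to 34.2 CPM, and Rad9a 18.8 to 19.6 CPM against 18.5 to 25.7 CPM. The changes of Rad1 and Rad17 depended on the control used. Without the length adjustment their log2 fold changes were 1.42 and 0.68 when control 3 was left out. When control 2 was left out they were 0.39 and 0.05.

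The end joining genes other than Prkdc also gave no call, with 0 of 8 in either direction in both edgeR fits. At an unadjusted edgeR p under 0.05, Xrcc4 and Poll were higher without the length adjustment, against 20.9% of all genes, and 0 of 8 differed with it. DESeq2 called Xrcc4 alone, without the adjustment, where DESeq2 called 16.2% of all genes lower and 17.1% higher. Xrcc5 and Xrcc6, the Ku subunits that cap the ends, had log2 fold changes of -0.03 each, with 95% intervals from -0.45 to 0.39 and from -0.38 to 0.32. Xrcc6 stood at 56.4 and 70.9 CPM in the controls and 60.4 to 63.9 CPM after irradiation, within the range of the controls. Xrcc4, which holds the ligase, had 7.95 and 8.29 CPM against 11.0 to 16.2 CPM, without overlap, at a log2 fold change of 0.71 ± 0.24 (edgeR adjusted p = 0.063) and of 0.24 ± 0.23 with the adjustment (edgeR adjusted p = 0.536). Lig4, the ligase itself, had 17.3 and 20.2 CPM against 14.4 to 16.7 CPM, at a log2 fold change of -0.26 ± 0.19 that became 0.09 ± 0.17.

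Poll, a gap-filling polymerase, had 9.56 and 15.0 CPM against 16.4 to 21.3 CPM, also without overlap, at log2 fold changes of 0.59 ± 0.25 and 0.42 ± 0.23 (edgeR adjusted p = 0.115 and 0.262). Its relative Polm had 8.23 and 12.2 CPM against 9.21 to 11.2 CPM. Nhej1, a ligation cofactor, and Dclre1c, the Artemis nuclease, had the lowest mean CPM over the 5 libraries, at 2.42 to 5.46 and 3.26 to 9.38 CPM, and their 95% intervals were the widest, from -0.64 to 1.22 and from -1.47 to 0.12.

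Across the group, the fold change followed the length of the main transcript. Over the 34 genes the log2 fold change and log2 length had a Pearson r of -0.883 and a Spearman rho of -0.903, a description across genes that share the same 5 libraries, against -0.425 and -0.562 over all 14114 genes. Of the 11 genes of 5000 bases or more, 8 fell and 11 had a log2 fold change under 0, whereas of the 11 genes under 2500 bases 0 fell and 2 were under 0. Over all genes tested, 43.3% of 2768 genes of 5000 bases or more fell, with a median log2 fold change of -0.62, and 2.47% of 5537 genes under 2500 bases fell, with a median of 0.47. The 34 genes are long, with a median of 3341.5 bases against 2981 over all genes tested, and 7 of them lie among the 1412 longest genes tested, whose median log2 fold change was -0.82. After the adjustment, r over the 34 genes was -0.262 and rho -0.232. The ratio of control 2 to control 3 also followed length over the 34 genes, with r = 0.56, so the trend was present between untreated libraries. The part of the trend that comes from RNA or library quality and the part that comes from the cells cannot be told apart in this design.

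Rad50 and Clspn, at 5153 and 5027 bases, lay below genes of their length. The genes of 4955 to 6519 bases had a median log2 fold change of -0.42 without the adjustment, while Rad50 stood at -1.27 and Clspn at -1.11. Topbp1 and Lig4, with 5224 and 5028 bases, stood at -0.33 and -0.26 in the same range of lengths.

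**Figure D3:**
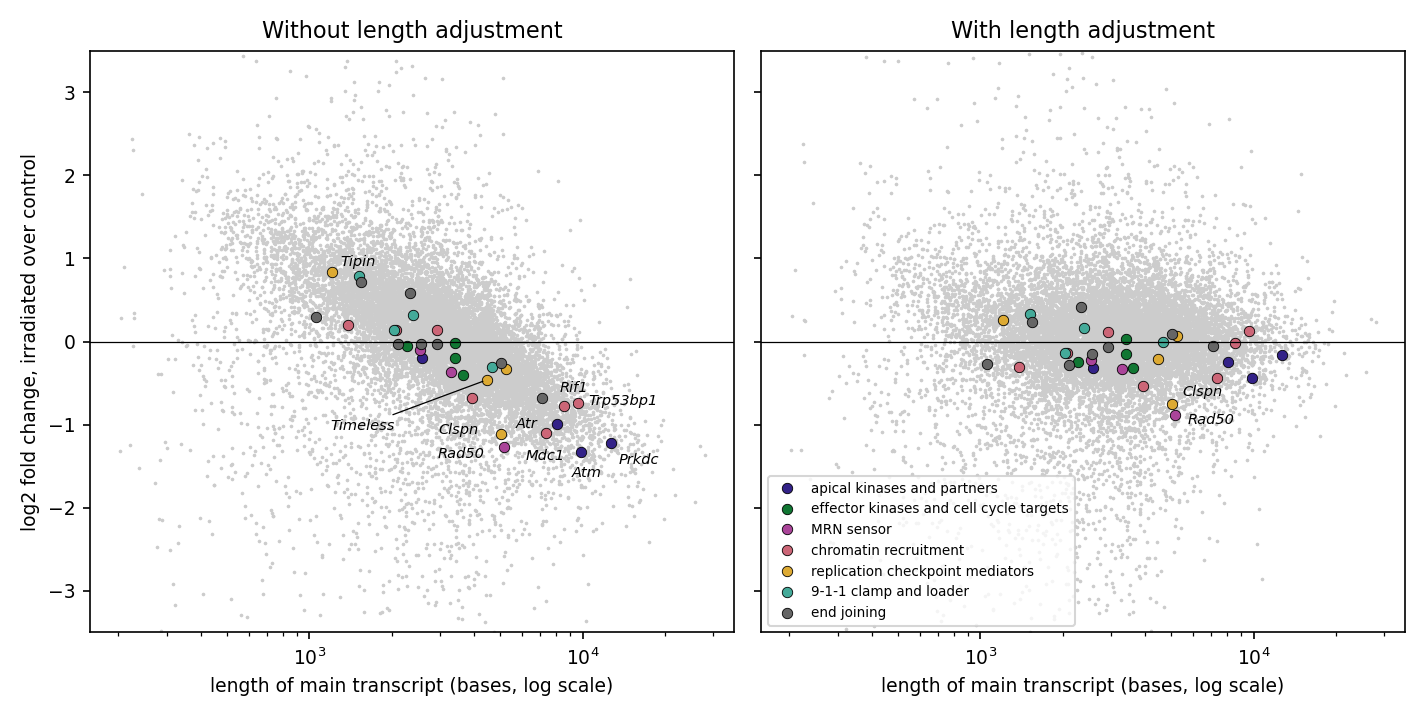
Log2 fold change, irradiated over control, against the length of the main transcript in bases on a log scale, without (left) and with (right) the length adjustment, with all genes tested in grey, except 98 and 99 genes outside the axes, and the 34 genes coloured by role, those with an edgeR adjusted p under 0.05 named. The 34 genes run downward with length on the left (r = -0.883) and lie near 0 on the right (r = -0.262), where Rad50 and Clspn are the lowest.

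Counted by separation alone, the irradiated libraries all lay below both controls for 18 of the 34 genes and above both for 4, against 29.3% and 30.1% of all genes tested. With the adjustment the counts were 13 below and 1 above, against 20.2% and 26.9%. An exact permutation test of 2 against 3 libraries cannot go under p = 0.1, so separation is given as counts, and the test of each gene is that of edgeR above.

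Levels of the 34 genes, as TPM summed over protein-coding transcripts, spanned from Tipin at the top to Dclre1c at the bottom. Tipin had 220.7 and 287.4 TPM in control 2 and 3, Mdc1 258.0 and 207.6 TPM and H2afx 168.5 and 260.1 TPM, and these 3 neighbours overlapped. Clspn, next in order, had 141.3 and 122.2 TPM, below all of them. At the low end Dclre1c had 2.67 and 4.54 TPM in the controls and 1.91, 2.92 and 2.80 TPM in irradiated 1, 2 and 3, and Prkdc had 6.57 and 5.14 TPM against 1.83, 1.89 and 2.49 TPM. After irradiation Tipin had 338.7, 308.3 and 264.4 TPM, H2afx 213.4, 199.8 and 193.2 TPM, and Mdc1 101.1, 69.9 and 87.0 TPM, so that the 3 no longer overlapped. Salmon's TPM divides by length, and the median difference of the 34 genes on log2(TPM + 1) was -0.69, against -0.24 over all genes tested.

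**Figure D4:**
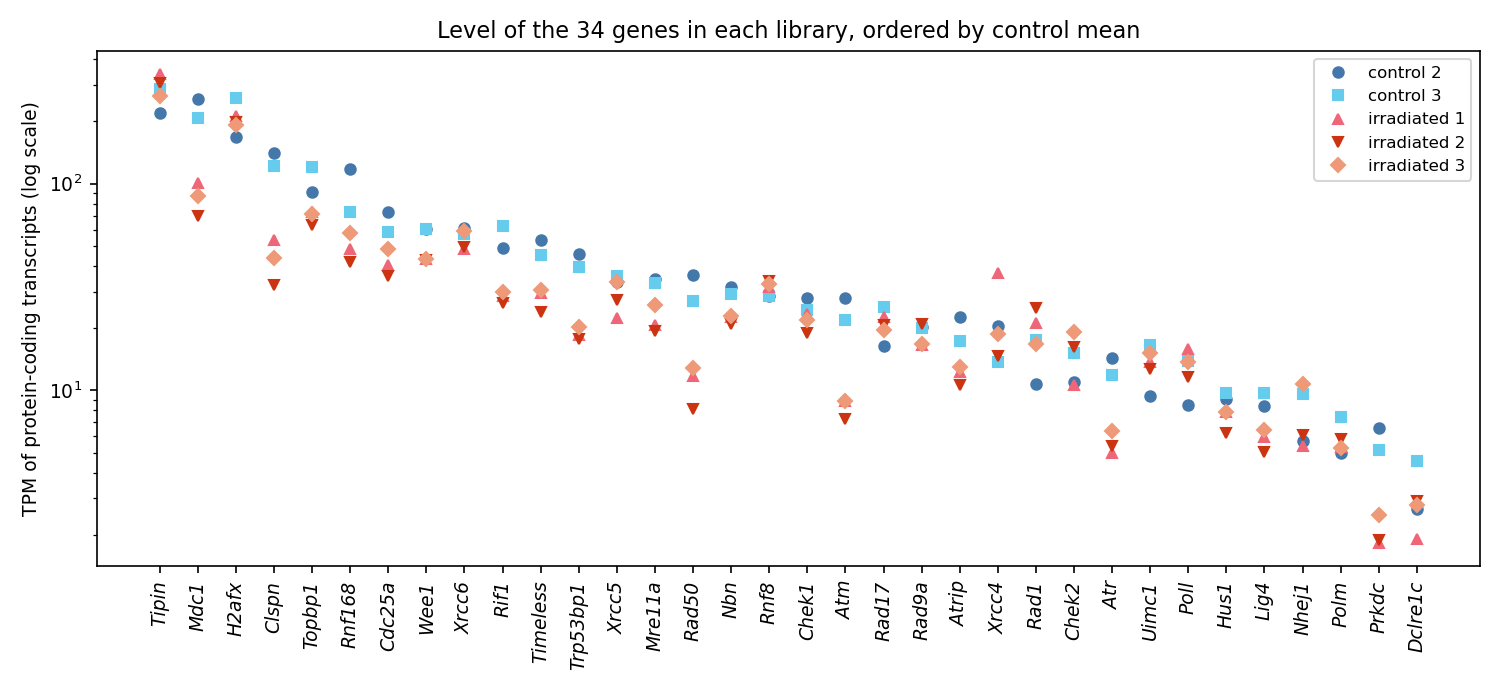
TPM of protein-coding transcripts, on a log scale, of the 34 genes ordered by their mean in the controls, with 1 symbol for each library. Tipin, Mdc1 and H2afx lead at about the same control level, and the irradiated symbols of Mdc1, Clspn, Rad50, Atm, Atr and Prkdc sit well under the controls.

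Short annotated transcripts took up a large part of some of these TPM values from few reads. In Mdc1, the full-length transcript of 7335 bases held 11111 of the reads in control 2 at 100.4 TPM, while a transcript of 422 bases with 221 reads was given 98.8 TPM. In Tipin, transcripts of 352 and 400 bases were given 97.9 and 73.9 TPM in control 2 from 126 and 142 reads, and the main transcript 44.1 TPM from 642 reads. The main Tipin transcript had 44.1 and 72.0 TPM in the controls and 107.2, 111.3 and 77.4 TPM in the irradiated libraries, without overlap. In Rif1, a transcript of 304 bases marked for nonsense-mediated decay was given 179.9 and 91.1 TPM in the controls from 150 and 70 reads, more than the full-length transcript at 43.7 and 52.8 TPM. For Atm, a retained-intron transcript of 281 bases was given 22.8 and 19.7 TPM in the controls from 16 and 13 reads, and 0.0, 2.02 and 0.0 TPM in the irradiated libraries.

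The share of a gene's reads on protein-coding transcripts could be compared in 23 of the 34 genes, those with another transcript class and at least 20 reads in each library. It was higher in all 3 irradiated libraries than in both controls for 9 of the 23 and lower for 0, against 40.5% and 4.66% of 7538 genes in the same comparison. The count of 9 is near the share of all genes, so a higher share is not particular to this group. The genes below are named as examples. The widest shift was that of Rnf8, with 75.9% and 74.6% in the controls and 99.3%, 95.4% and 92.0% after irradiation. Rnf8 overlaps exons of Gm28043 on the same strand, so reads may be split between them. Rnf8 levels over coding transcripts were 28.6 and 28.7 TPM in the controls and 31.5, 33.8 and 32.7 TPM after irradiation, whereas over all its transcripts they were 60.6 and 64.7 TPM against 32.6, 38.9 and 44.4 TPM, so the direction turned with the transcripts counted. Polm went in the same measure from 87.7% and 85.8% to 97.1%, 95.1% and 94.9%, and Hus1, with the lowest share among these 9, from 56.1% and 66.8% to 72.8%, 71.4% and 69.7%, values given without a test.

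Genes whose products work in pairs were also compared by their ratio in each library. The 16 pairs were chosen from their joint roles, with earlier results of these data known, and some share a gene. The ratio of whole-gene TPM did not overlap between groups in 11 of them, and in 12 when only protein-coding transcripts were counted. These were not all the same pairs. Chek1 to Chek2 was apart only over all transcripts, and Rnf8 to Rnf168 and Dclre1c to Prkdc only over coding transcripts. Among every pair of genes tested with a TPM above 0 in each library, 52.7% and 54.3% did not overlap in the same measures. The exact permutation test of a ratio cannot pass the threshold with 2 against 3 libraries, where its smallest p is 0.1 (two-sided). The smallest adjusted p that this permutation test gave over the 16 pairs was 0.178, and no other test of the ratios was run. Over coding transcripts, Timeless stood to Tipin at 0.241 and 0.158 in the controls and at 0.0872, 0.0779 and 0.116 in the irradiated libraries, a log2 ratio lower by 1.08. Chek1 stood to Clspn at 0.199 and 0.200 in the controls and at 0.436, 0.584 and 0.503 after irradiation, a log2 ratio higher by 1.34.

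Within the MRN complex the coding ratio of Mre11a to Rad50 was 0.948 and 1.22 in the controls and 1.76, 2.40 and 2.02 after irradiation, and that of Nbn to Rad50 was 0.873 and 1.08 against 1.93, 2.58 and 1.79. The Ku pair showed no such shift, since Xrcc5 stood to Xrcc6 at 0.543 and 0.626 in the controls and at 0.464, 0.558 and 0.566 after irradiation, and the groups overlapped. Wee1 stood to Cdc25a at 0.822 and 1.04 against 1.07, 1.19 and 0.892, again with overlap. The partners differ in length, by 4457 to 1211 bases for Timeless and Tipin and by 3286 to 5153 for Mre11a and Rad50, and the part of length in these ratios was not tested.

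**Figure D5:**
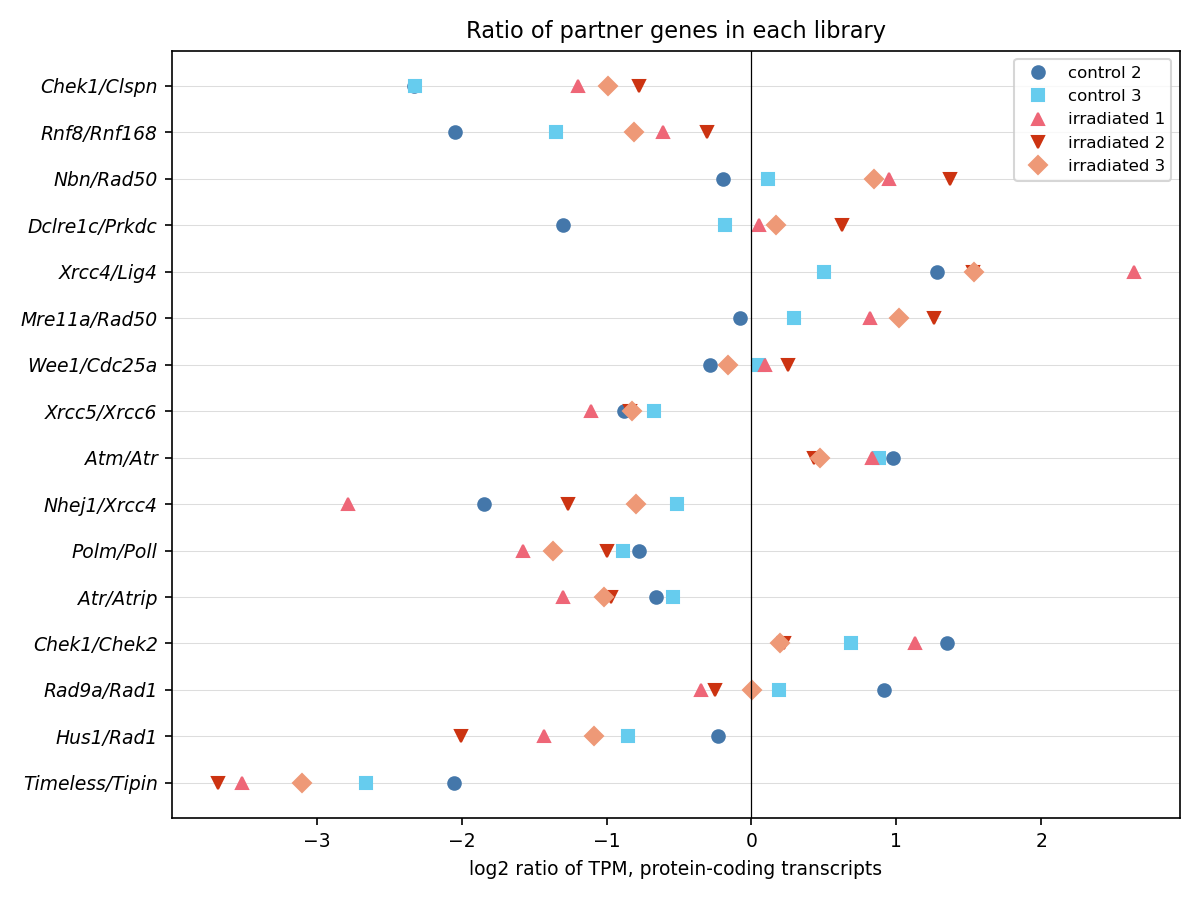
Log2 ratio of TPM over protein-coding transcripts for 16 pairs of partner genes, with 1 symbol for each library and pairs ordered by the difference between groups. Chek1 to Clspn lies to the right in the irradiated libraries and Timeless to Tipin to the left, without overlap, while Xrcc5 to Xrcc6 and Wee1 to Cdc25a overlap.

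Promoter sequence is shown for 3 of the genes that fell, as the stretch before the annotated gene start in which known cell cycle promoter words were looked for. RefSeq windows of 300 bases, 250 before and 50 after a transcript start (GRCm38), were at hand for 25 of the 34 genes. Words bound by E2F factors (TTTCCCGC, TTTGGCGC, TTTCGCGC or TTTGCCGC, either strand) were present in 6 of the 25, namely Cdc25a, Chek2, Clspn, Mdc1, Topbp1 and Xrcc6, against 2.26% of 32851 windows of the same length. The word CCAAT was present in 13 of 25 against 37.4% of windows, and TTTGAA or TTCGAA, words of the CHR element, in 4 of 25 against 19.2%. Of the 6 genes with an E2F word, Clspn and Mdc1 fell without the length adjustment and Cdc25a, Chek2, Topbp1 and Xrcc6 did not pass the test. In the sequences, written 5′ to 3′ on the strand of the gene, capitals mark CCAAT words on either strand (ATTGG is CCAAT on the other strand) and the E2F word of Mdc1. The E2F word of Clspn starts after the RefSeq start and is outside the stretch shown.
Clspn, chr4:126556730-126556934, plus strand: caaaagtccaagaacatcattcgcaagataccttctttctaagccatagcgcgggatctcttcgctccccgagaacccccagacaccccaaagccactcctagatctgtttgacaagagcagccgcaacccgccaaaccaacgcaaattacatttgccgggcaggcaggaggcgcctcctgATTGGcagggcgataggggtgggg
Mdc1, chr17:35841248-35841497, plus strand: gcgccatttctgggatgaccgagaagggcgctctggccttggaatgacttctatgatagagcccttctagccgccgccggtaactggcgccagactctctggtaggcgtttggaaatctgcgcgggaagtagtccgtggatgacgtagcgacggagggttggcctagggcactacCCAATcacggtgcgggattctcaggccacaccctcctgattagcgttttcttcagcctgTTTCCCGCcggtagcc
Atm, chr9:53536741-53536921, minus strand: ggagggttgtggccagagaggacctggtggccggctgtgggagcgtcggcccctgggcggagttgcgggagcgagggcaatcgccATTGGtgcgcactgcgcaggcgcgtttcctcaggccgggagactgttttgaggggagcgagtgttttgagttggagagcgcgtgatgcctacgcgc
In Mdc1 the CCAAT word starts 75 bases and the E2F word 16 bases before the RefSeq start. A match is a run of letters and no measure of binding.

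Other genes of the same pathway, 61 found in the annotation of which 59 were tested, are given beside them. Without the adjustment 8 of 59 fell (13.6%) and 6 rose (10.2%), against 13.0% and 12.7% of all genes, and with it 2 fell (3.39%) and 1 rose (1.69%), against 2.15% and 3.00%. These shares are near those of all genes, and the genes below are named as examples. The 5 with the smallest p among those that fell were Polq, the polymerase of microhomology-mediated joining (log2 fold change -1.61 ± 0.20), Smg1 (-1.32 ± 0.18), Herc2 (-1.56 ± 0.26), Trrap (-1.39 ± 0.24) and Rnf169 (-0.88 ± 0.18), with main transcripts of 7147 to 15557 bases. Those that rose were led by Paxx, a factor that binds Ku (1.17 ± 0.28), Rpa3 (1.28 ± 0.32), Rpa2 (0.85 ± 0.22), Shld1 (1.74 ± 0.48) and Rfc3 (0.61 ± 0.17), with main transcripts of 670 to 1813 bases. Rpa2 and Rpa3 encode subunits of the protein that coats single-stranded DNA.

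With the length adjustment Polq (-0.80 ± 0.16, edgeR adjusted p = 0.035) and Pkmyt1, a kinase that restrains Cdk1 (-0.69 ± 0.16, edgeR adjusted p = 0.0464), fell and Rfc2, a clamp loader subunit (0.71 ± 0.16, edgeR adjusted p = 0.0461), rose. Polq had 20.3 and 16.8 TPM in the controls and 5.85, 4.08 and 5.08 TPM in the irradiated libraries, without overlap. Of 15 listed genes of replication and mitosis, 3 fell (Mki67, Top2a and Bub1), 1 rose (Pcna) and 11 did not pass without the adjustment, against the same 13.0% and 12.7% of all genes, with a median log2 fold change of 0.10. With the adjustment 2 fell, against 2.15% of all genes, at a median of 0.0062 for the list. They were Mki67, by 1.63 ± 0.25, and Top2a, by 0.95 ± 0.16 on the log2 scale. The part of such cell cycle changes in those of Rad50, Clspn and Polq was not tested.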

How the data were processed

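The 5 bulk RNA libraries of KP1 cells were used. The leukocyte single-cell samples were not analysed here. The authors quantified reads with Salmon against mm10 (Salmon 0.8.2 and DESeq2 1.22.2 in the submitters' processing notes, annotation not given in the sources used here) and deposited expected counts (estimated reads per transcript, unscaled), TPM and transcript lengths in bases.

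Here, transcripts were matched to GENCODE M21 (112841 of 113116, with 99.9% or more of the reads), summed to genes and rounded. The main test was edgeR 4.0.16 (filterByExpr, TMM, quasi-likelihood, common dispersion 0.0543, R 4.3.3) with Benjamini-Hochberg adjustment. The second fit added an offset from a natural spline (5 degrees of freedom) on log2 length of the transcript with most reads, which removes any trend with length whatever its source. Intervals are 95% t intervals from edgeR standard errors. Call thresholds were an adjusted p under 0.05 and, as the stricter rule, a log2 fold change beyond 1.5. Alternatives used DESeq2 1.42.0, limma 3.58.1 on log2(TPM + 1), other normalizations, filters, offsets and thresholds, the replicate block and each library left out. A blastn 2.17.0 search (95% identity over 80% of a transcript) found a near-identical stretch for Mdc1 alone, in Gm11032, which held 0 to 32 reads. Tables and plots were made in Python 3.11.15 (scipy 1.17.1, pandas 2.3.3, matplotlib 3.10.9).

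All 34 genes are reported. Of the other pathway genes, the named ones are the 5 in each direction with the smallest p among those passing the unadjusted fit, and all that pass the adjusted fit. The 34 genes, the lists and the pairs were chosen with earlier results of these data known. Nothing says whether libraries came from separate cultures, so p-values measure the spread between these samples, which may be technical.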

Additional observations from a re-analysis of the deposited data

How the results depend on the processing

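The median log2 fold change of the 34 genes stayed below 0 under every alternative in both fits. Without the length adjustment, 9 genes lower, against 1828 of all 14114 genes tested, became 17 with limma on log2 TPM, against 2683. They became 5 at a log2 fold change beyond 1, against 743 of all genes. With any 1 irradiated library left out they were 8, against 834 to 1461 of all genes. The 1 gene higher, against 1788 of all genes, became 2 with DESeq2 (2410 of all genes), 3 without a filter (2520 of 20547) and 2 with a GC offset (1707). It became 0 with limma on log2 TPM (697) and 0 beyond a log2 fold change of 1 (790). With 1 irradiated library left out it was 0 or 1, against 685 to 1558 of all genes. Genes lower by more than 1.5 went from 0, against 268 of all genes, to 3 with limma on log2 TPM, against 345. The median went from -0.20 to -0.69 with limma on log2 TPM, while that over all genes went from 0.02 to -0.24. With the length adjustment, 2 genes lower, against 304 of all genes, became 4 with DESeq2 (1143 of all genes) and 4 without a filter (786 of 20547). They became 1 with protein-coding transcripts alone (194 of 13229) and 1 with a spline of 3 degrees of freedom (309). The TPM-weighted mean length gave 6 (516) and effective length offsets, which leave a trend across genes, gave 9 (1391). Beyond a log2 fold change of 1 there were 0 (148), and with any 1 irradiated library left out 0, against 0 to 106 of all genes. The 0 genes higher, against 423 of all genes, became 1 without a filter, against 1701 of 20547. Genes lower by more than 1.5 went from 0 to 1 with effective length offsets. The median of -0.15 became -0.22 with protein-coding transcripts alone, -0.36 with effective length offsets and -0.0903 without a filter. It was -0.18 to -0.0917 with 1 library left out. Reversals were those of Rnf8 (-0.69, limma on log2 TPM) and of Trp53bp1 in the adjusted fit (-0.88 with effective length offsets and -0.60 with the TPM-weighted mean length). The causes of these shifts were not tested. Among single genes, 464 of 510 alternative values kept their side of the threshold without and 512 of 544 with the adjustment, and 37 and 34 changed sign. The other alternatives left these counts within 1.5 times, apart from the replicate blocks below and the fits with 1 control left.

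The replicate numbers 2 and 3 are shared by both groups, but the log2 ratio of replicate 2 to 3 correlated at -0.196 between groups, so the samples share only a number. With the replicate block, 6 genes were lower and 0 higher without the length offset, against 492 and 601 of all 14114 genes tested. With the offset 0 were lower, at a median of -0.09. That fit called only 2 of all genes, so its 0 says nothing about these genes. With the crossed pairing, chosen after seeing the data, 13 were lower and 2 higher without the offset, against 2668 and 3027 of all genes. With the offset 4 were lower, against 851 of all genes, at a median of -0.0903.

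The 95% intervals of Nhej1 and Dclre1c, under 10 CPM in every library, spanned more than a log2 unit, as did those of Polm, Xrcc4, Rad1, Poll and Uimc1 under 25 CPM and of Tipin and Rnf168 at higher CPM, and the part of depth in these widths was not tested.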
